A study of Mus musculus with 8 samples.

Results

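Scavenger receptors and efferocytosis receptors are the surface proteins with which macrophages take up modified lipoproteins, hemoglobin, glycoproteins, bacteria and dying cells. The genes described here were chosen by symbol, as the 10 such receptors Cd163, Mrc1, Msr1, Marco, Cd36, Cd68, Lyve1, Colec12, Mertk and Axl, and all 10 were among the 750 immune-related genes of the panel. RNA of whole peritoneal tumors was counted on the NanoString nCounter mouse immune panel, in which color-coded probes hybridize to each transcript and are counted without amplification. The tumors grew from MC38 cells, a murine colon cancer line, injected into the peritoneal cavity of male wild-type C57BL/6 mice aged 7 to 8 weeks. From 7 days after implantation, mice received PBS (4 tumors by their labels) or the STING agonist RR-CDA (ADU-S100, MIW815, 4 tumors) into the same cavity, the agonist in 2 injections of 15 µg given 3 days apart, and tumors were collected 10 days after the first injection. The comparison asked how these receptors differed between tumors after STING activation and after PBS. The tumors came from 2 experiments, and the experiment of each tumor was not given in the sources used here, so the part of the experiment in any difference was not tested.

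The class A scavenger receptors encoded by Msr1, Marco and Colec12 carry collagen-like domains and bind polyanionic ligands, CD163 clears hemoglobin-haptoglobin complexes, and CD36 takes up oxidized lipoproteins and fatty acids. The mannose receptor encoded by Mrc1 and the hyaluronan receptor LYVE1 mark many resident tissue macrophages, and LYVE1 also marks lymphatic vessels. The TAM receptors MERTK and AXL bind phosphatidylserine on dying cells through the bridging ligands GAS6 and protein S, and macrophages that carry such receptors are abundant in many peritoneal tumors.

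Panel totals ran from 241724 to 403150 counts per tumor after PBS and from 241506 to 414698 after the STING agonist. The background, set from the 8 negative control probes, averaged 8.62 counts and ranged from 5.03 to 11.3. The lowest count of any of the receptors was 8, for Cd163 in STING 1, where the background was 6.31. The scale of a tumor was the geometric mean over its 20 housekeeping genes, and a normalized count is the count divided by that factor. PBS 2 and PBS 4 differed by less than the sampling noise over 358 genes, at 0.404 chi-square units per degree of freedom, while the 11 remaining within-group pairs had 5.89 to 12.6. They were averaged and counted as 1 sample, which left n = 3 PBS samples and n = 4 STING agonist samples. Independent tumors would differ by at least the sampling noise, so PBS 2 and PBS 4 were not independent samples. How this arose was not tested. Alternatives with 8 separate tumors take the labels as they stand and so count this profile 2 times. This averaged sample stood apart in its macrophage genes, with 37.9 normalized counts of Csf1r against 211.5 in PBS 1 and 207.9 in PBS 3. STING 4 stood apart in hepatocyte genes, led by Ambp at 774.5 normalized counts against 2.48 to 11.9 in the other samples.

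On the housekeeping scale the receptors did not share 1 direction. Their log2 fold changes were above 0 for 5 and below 0 for 5, beside 533 and 217 of the panel genes. Cd36 was higher in the STING agonist-treated tumors and Cd163 and Marco were lower, each at an unadjusted p under 0.05, while the other 7 did not pass that threshold. Of the 10 receptors, 1 was higher and 2 were lower by an unadjusted p under 0.05 in the quasi-likelihood test of edgeR, where 17.6% of the 750 panel genes were higher and 1.33% were lower. These panel shares depended on the scale, with 84 genes higher and 40 lower under TMM normalization, 78 and 44 under DESeq2 size factors and 68 and 31 under the total count, where the receptors numbered 1 and 3, 1 and 3, and 1 and 2. The groups did not overlap for 1 receptor that was higher, against 16.8% of the panel, and for 0 receptors that were lower, against 1.47%. After Benjamini-Hochberg adjustment over the panel, edgeR called 0 of 750 genes (0%) and 0 receptors, with 132 genes higher and 10 lower before adjustment. DESeq2 called 44 genes after adjustment, 1 of them a receptor (Cd36), with Clec7a, Tfrc, Ccr2, Ptprc, Cd3g, Itgax, Kdr and Ido1 also among them, while limma and the per-gene test named in the methods each called 0. The edgeR count was 1 gene without PBS 3 and 7 genes without STING 3, in both cases with 0 receptors. Before adjustment, 79 panel genes were higher without STING 1 and 79 without STING 4, and the genes lower numbered 17 without the averaged PBS 2 and 4, 18 without STING 3, and 6 without PBS 3 or STING 1. The receptors numbered 2 higher and 0 lower without PBS 3, 1 and 3 without the averaged PBS 2 and 4, and 1 and 1 without STING 2. In these fits the panel genes numbered 154 higher and 6 lower, 90 and 17, and 137 and 9. The median log2 fold change of the receptors was -0.09 beside 0.22 for the panel. It lies midway between Mrc1 (-0.26) and Axl (0.08), which were 0.09 and 0.02 without PBS 3. The receptor median was then above 0, and that of the panel was 0.37. The panel median depended on the scale and was -0.02 with TMM normalization, -0.04 with the size factors of DESeq2 and 0.01 with the total count, so that values are best read against it. The receptor median of -0.09 is for the housekeeping scale alone. Receptors moved down with DESeq2 size factors too, among them Axl (-0.21), Colec12 (-0.61) and Cd68 (0.04). Against the panel median of 0.22, 6 receptors lay below and 4 above.

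**Figure D1:**
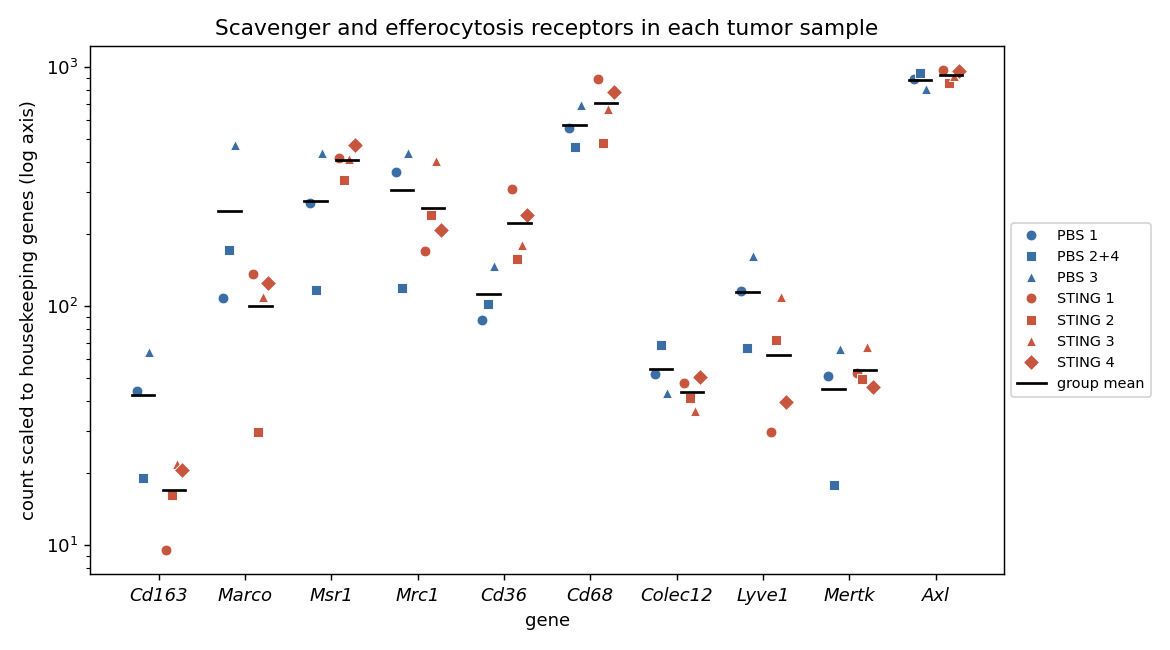
Count of each receptor, scaled to housekeeping genes, on a log axis in the 3 PBS samples (blue, PBS 2 and 4 averaged) and the 4 STING agonist samples (red), with black bars for group means. The 4 red points of Cd36 lie above all 3 blue points, the blue point of PBS 3 is the highest PBS value for 8 of the 10 genes, and the averaged PBS 2 and 4 is the lowest for 6.

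Cd163, the receptor for hemoglobin-haptoglobin complexes, stood at 44.2 normalized counts in PBS 1, 19.0 in PBS 2 and 4 averaged and 64.4 in PBS 3, and at 9.49, 16.1, 21.8 and 20.6 in STING 1 to STING 4. The averaged PBS 2 and 4 lay within the range of the treated tumors, and PBS 1 and PBS 3 lay above all of them. The means were 42.5 ± 22.8 (SD, n = 3) and 17.0 ± 5.58 (SD, n = 4) normalized counts. The log2 fold change was -1.32 ± 0.46 (SE, adjusted p = 0.205 by the quasi-likelihood test of edgeR), and 2 of 750 panel genes had a lower one. It was -1.66 without the averaged PBS 2 and 4 and -0.89 without PBS 3, where the unadjusted p was no longer under 0.05. The counts behind these values were low, with 8, 13, 21 and 23 in the treated tumors and 47, 19, 88 and 12 in PBS 1 to PBS 4. In whole tumor RNA, fewer cells that carry a transcript and less of that transcript per cell cannot be told apart.

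Marco, a class A scavenger receptor that binds bacteria and particles, stood at 108.1 normalized counts in PBS 1, 170.7 in PBS 2 and 4 averaged and 473.6 in PBS 3, and at 136.5, 29.8, 109.0 and 124.6 in STING 1 to STING 4. PBS 3 was far above every other sample, STING 2 was the lowest, and the other 3 treated tumors lay above PBS 1 and below PBS 2 and 4 averaged. The means were 250.8 ± 195.5 (SD, n = 3) and 99.98 ± 48.1 (SD, n = 4) normalized counts. The log2 fold change was -1.33 ± 0.57 (SE, edgeR adjusted p = 0.254), and 0 of 750 panel genes had a lower one. Leaving out PBS 3 moved Marco more than any other receptor, to a log2 fold change of -0.47, and the unadjusted p was then over 0.05, as it was without STING 2 (-1.03) or STING 3 (-1.37).

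Msr1, another class A receptor, stood at 269.8 normalized counts in PBS 1, 116.2 in PBS 2 and 4 averaged and 438.5 in PBS 3, and at 417.7, 336.6, 413.2 and 470.6 in STING 1 to STING 4. The treated tumors were close together, with values from 336.6 to 470.6, while the PBS samples spread 3.77-fold and PBS 3 lay among the treated tumors. Its log2 fold change was 0.57 ± 0.37 (SE, edgeR adjusted p = 0.439). It was 0.21 without the averaged PBS 2 and 4 and 1.08 without PBS 3. An unadjusted p under 0.05 was reached in 3 of 19 alternatives, without PBS 3 and in the 2 that kept 8 separate tumors with limma or with a replicate block.

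Cd36, a class B receptor for oxidized lipoproteins and fatty acids, stood at 87.4 normalized counts in PBS 1, 102.0 in PBS 2 and 4 averaged and 146.4 in PBS 3, and at 309.7, 157.7, 180.7 and 239.4 in STING 1 to STING 4. All 4 treated tumors were above all 3 PBS samples, with PBS 3 and STING 2 the nearest. The means were 111.9 ± 30.7 (SD, n = 3) and 221.9 ± 67.9 (SD, n = 4) normalized counts, a 1.98-fold difference. On the log2 scale the difference was 0.98 ± 0.29 (SE, edgeR adjusted p = 0.181). With the Wald test of DESeq2 the adjusted p was 0.0397, and over all alternatives it ranged from 0.0397 to 0.415. With 1 sample left out, its log2 fold change ranged from 0.78 without STING 1 to 1.23 without PBS 3. The unadjusted p was under 0.05 in 18 of 19 alternatives, the exception being the per-gene test named in the methods.

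Cd68, a lysosomal glycoprotein used as a general macrophage marker, stood at 557.4 normalized counts in PBS 1, 464.7 in PBS 2 and 4 averaged and 693.2 in PBS 3, and at 893.6, 480.7, 667.6 and 783.5 in STING 1 to STING 4. The groups overlapped, with STING 1 and STING 4 above all PBS samples. Its log2 fold change was 0.30 ± 0.23 (SE, edgeR adjusted p = 0.516). It ranged from 0.17 without STING 1 to 0.47 without PBS 3 when 1 sample was left out, and it was 0.04 with the size factors of DESeq2.

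The 300 bases around the start site are shown for Marco, Cd163 and Cd36, the receptors at an unadjusted p under 0.05. Sequences are from RefSeq (GRCm38.p6), 250 bases before the start to 50 after it, and 7 of the 10 receptors had an entry. The windows are chr1:120504975-120505274 on the minus strand for Marco, chr6:124304401-124304700 on the plus strand for Cd163 and chr5:17835847-17836146 on the minus strand for Cd36, all written 5′ to 3′ in the direction of the gene. Capitals mark matches to the letters searched for.
Marco: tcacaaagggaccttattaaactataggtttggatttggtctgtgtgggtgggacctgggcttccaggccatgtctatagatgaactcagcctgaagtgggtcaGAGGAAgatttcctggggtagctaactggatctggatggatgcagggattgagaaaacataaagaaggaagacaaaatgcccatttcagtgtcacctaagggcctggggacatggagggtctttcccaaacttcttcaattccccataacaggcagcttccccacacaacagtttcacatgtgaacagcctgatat
Cd163: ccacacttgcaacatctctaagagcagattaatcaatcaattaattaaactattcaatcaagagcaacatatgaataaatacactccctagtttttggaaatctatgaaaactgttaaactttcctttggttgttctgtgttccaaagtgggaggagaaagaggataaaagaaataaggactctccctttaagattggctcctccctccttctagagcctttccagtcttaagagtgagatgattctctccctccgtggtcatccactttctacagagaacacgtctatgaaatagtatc
Cd36: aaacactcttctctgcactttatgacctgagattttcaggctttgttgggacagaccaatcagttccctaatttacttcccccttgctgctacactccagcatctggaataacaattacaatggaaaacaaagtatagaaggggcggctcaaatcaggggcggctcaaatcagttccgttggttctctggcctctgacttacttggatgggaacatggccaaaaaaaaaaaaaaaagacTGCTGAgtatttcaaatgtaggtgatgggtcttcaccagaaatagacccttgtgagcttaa
The letters were searched on both strands. The purine box GAGGAA bound by the macrophage factor PU.1 was in 4 of the 7 receptor windows (Marco, Mrc1, Axl and Cd68) and in 28.3% of 32851 promoters. The MAF half-site TGCTGA was in 1 window (Cd36) and in 19.5% of promoters, and the AP-1 letters TGANTCA were in 1 window (Cd68) and in 7.81%. The paired IRF half-sites GAAANNGAA, found in 8.56% of promoters, and the GAS letters TTCNNNGAA, found in 8.30%, were in 0 of the 7 windows. In the Marco window the purine box began 146 bases before the start site, and in the Cd36 window the MAF letters began 11 bases before it. The Cd163 window held none of these letters. A match is a description of the letters, and binding was not measured.

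Among the receptors of resident tissue macrophages, Lyve1, which binds hyaluronan, stood at 115.6 normalized counts in PBS 1, 66.4 in PBS 2 and 4 averaged and 162.5 in PBS 3, and at 29.7, 72.0, 109.0 and 39.4 in STING 1 to STING 4. STING 1 and STING 4 were below all PBS samples, and STING 2 and STING 3 were within their range. Its log2 fold change was -0.88 ± 0.47 (SE, edgeR adjusted p = 0.347), and 17 of 750 panel genes had a lower one. It passed an unadjusted p of 0.05 without the averaged PBS 2 and 4 (-1.15) and without STING 3 (-1.30), and was -0.54 without PBS 3. It also passed with TMM normalization (-1.05) and with DESeq2 size factors (-1.07), which makes 4 of 19 alternatives.

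Mrc1, which encodes the mannose receptor CD206, stood at 362.8 normalized counts in PBS 1, 118.5 in PBS 2 and 4 averaged and 438.5 in PBS 3, and at 169.7, 239.7, 406.0 and 208.9 in STING 1 to STING 4. The treated tumors lay within the range of the PBS samples. For Mrc1 the log2 fold change was -0.26 ± 0.44 (SE, edgeR adjusted p = 0.828), and its sign turned with 1 sample, from 0.09 without PBS 3 to -0.65 without the averaged PBS 2 and 4. Colec12, a scavenger receptor of endothelial and stromal cells as well as macrophages, ranged from 43.2 to 68.8 normalized counts in the PBS samples and from 36.3 to 50.2 in the treated tumors. The groups overlapped, and its log2 fold change was -0.31 ± 0.28 (SE, edgeR adjusted p = 0.596), or -0.11 without the averaged PBS 2 and 4 and -0.61 with DESeq2 size factors.

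The TAM receptors Mertk and Axl did not pass an unadjusted p of 0.05 on the housekeeping scale. Mertk, which drives the uptake of dying cells, stood at 50.8 normalized counts in PBS 1, 17.8 in PBS 2 and 4 averaged and 65.9 in PBS 3, and at 52.2, 49.7, 67.5 and 45.7 in STING 1 to STING 4. Apart from the low value of the averaged PBS 2 and 4, the groups overlapped, and the log2 fold change of 0.25 ± 0.41 (SE, edgeR adjusted p = 0.828) was -0.12 without that sample, 0.64 without PBS 3 and 0.74 with limma on 8 separate tumors. Axl, a relative of Mertk that is also made by many stromal and tumor cells, stood at 894.9 normalized counts in PBS 1, 946.0 in PBS 2 and 4 averaged and 808.1 in PBS 3, and at 973.1, 860.7, 919.9 and 966.4 in STING 1 to STING 4. It was the steadiest of the 10 receptors across samples, with a highest value 1.17 times the lowest in the PBS group and 1.13 times in the treated group. Its log2 fold change was 0.08 ± 0.13 (SE, edgeR adjusted p = 0.837) and turned to -0.20 with TMM normalization, -0.21 with the size factors of DESeq2 and -0.13 with the total count.

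The PBS samples differed among themselves in an order that many receptors shared with other genes. Adgre1, Lyz2, C3ar1 and Tfrc too were highest in PBS 3 and lowest in the averaged PBS 2 and 4 within the PBS group, while Csf1r and Anxa1 were not. The share of the panel with this order was not counted, so it is not a trait of the receptors alone. PBS 3 was the highest PBS sample for 8 of the 10 receptors, and the averaged PBS 2 and 4 was the lowest for 6, namely Cd163, Mrc1, Msr1, Cd68, Lyve1 and Mertk. Its values for Colec12 and Axl were the highest of the PBS group. In the treated group STING 2 was lowest for 5 receptors and STING 1 for 3 (Cd163, Mrc1 and Lyve1), although STING 1 was the highest for Marco, Cd36, Cd68 and Axl.

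Macrophage markers are given here because a receptor count in whole tumor RNA may depend on how much macrophage RNA a sample holds, which was not tested. Of 11 listed markers 9 were on the panel, 3 were higher by an unadjusted p under 0.05 (Adgre1, Fcgr1 and Ccr2) and 0 were lower, beside 17.6% and 1.33% of the panel, and 8 had a log2 fold change above 0, with a median of 0.94. Adgre1, which encodes F4/80 and is named Emr1 on the panel, stood at 157.0, 59.3 and 240.1 normalized counts in the PBS samples and at 502.0, 314.2, 260.6 and 426.7 in STING 1 to STING 4. The groups did not overlap, and the log2 fold change was 1.29 ± 0.43 (SE, edgeR adjusted p = 0.194), or 0.92 without the averaged PBS 2 and 4. Fcgr1, a high-affinity Fc receptor, had a log2 fold change of 1.07 (0.67 without that sample), and Ccr2, the chemokine receptor of recruited monocytes, had 1.48 (adjusted p = 0.230 and 0.175, edgeR). Csf1r, the receptor for the macrophage growth factor CSF1, had a log2 fold change of 0.96 and did not pass an unadjusted p of 0.05. Its normalized counts were 211.5, 37.9 and 207.9 in the PBS samples and 291.9, 318.0, 231.5 and 353.2 in STING 1 to STING 4. The size of its difference rests in part on the low averaged PBS 2 and 4. The most abundant marker, Lyz2, had 0.66, or 0.32 without the averaged PBS 2 and 4 and 1.06 without PBS 3. Summed over the 9 markers, the level was 3860, 1612 and 5112 normalized counts in PBS 1, PBS 2 and 4 averaged, and PBS 3, and 6763, 5368, 4931 and 6506 in STING 1 to STING 4. Most of this sum was Lyz2 in every sample. Ptprc, the leukocyte marker CD45, had a log2 fold change of 1.24 (adjusted p = 0.181, edgeR), with groups that did not overlap.

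The receptors were therefore also scaled to the geometric mean of Csf1r and Adgre1, which gives a receptor count per macrophage marker count and counts no cells. On this scale the panel as a whole was lower in the treated tumors, with a median log2 fold change of -1.30 over the 748 other genes, and that shift rested largely on the averaged PBS 2 and 4, without which it was -0.52. Of the 10 receptors, 0 were higher and 7 were lower by an unadjusted p under 0.05 (edgeR), where 0.535% and 51.6% of the panel were. All 10 receptors had a log2 fold change below 0, as did 698 of the 748 panel genes. The groups did not overlap for 0 receptors that were higher (0.535% of the panel) and for 7 that were lower (38.5% of the panel). After adjustment edgeR called 0 genes (0%) and 0 receptors, against 4 genes higher and 386 lower before adjustment, and DESeq2, limma and the per-gene test were not run on this scale. This 0 lay close to the threshold, since 186 genes shared the lowest adjusted p of 0.0586, 5 receptors among them. Leaving out PBS 1 gave 391 genes and 6 receptors, PBS 3 gave 369 and 6, STING 3 gave 36 and 3, and STING 4 gave 5 and 1. Before adjustment the genes lower numbered 203 without the averaged PBS 2 and 4, 232 without STING 1, 240 without STING 2 and 248 without STING 4, with 6, 5, 5 and 5 receptors among them.

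Marco and Cd163 lay furthest below the panel median on this scale too. Cd163 stood at 61.9, 102.0 and 73.6 scaled counts in the PBS samples and at 6.33, 13.0, 22.6 and 13.5 in STING 1 to STING 4. All treated tumors were below all PBS samples, and the averaged PBS 2 and 4, within the treated range on the housekeeping scale, was the highest. This gave a log2 fold change of -2.49 ± 0.57 (SE, edgeR adjusted p = 0.0586), which is -1.19 relative to the panel median, and it was -2.30 without the averaged PBS 2 and 4. Marco stood at 151.3, 918.4 and 540.8 scaled counts in the PBS samples and at 90.9, 24.1, 113.2 and 81.9 in STING 1 to STING 4, again with no overlap. Its log2 fold change was -2.78 ± 0.65 (SE, edgeR adjusted p = 0.0586), -1.48 relative to the panel median, with 3 of 748 genes lower. It was -2.16 without the averaged PBS 2 and 4 and -2.76 without PBS 3, the sample that moved its value most on the housekeeping scale.

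Cd36 lay on the other side of the panel median. It stood at 122.4, 548.5 and 167.2 scaled counts in the PBS samples and at 206.4, 127.3, 187.6 and 157.3 in STING 1 to STING 4. The averaged PBS 2 and 4 was far above all other samples, which otherwise overlapped. The log2 fold change was -0.69 ± 0.58 (SE, edgeR adjusted p = 0.313), 0.61 above the panel median, and turned to 0.22 without the averaged PBS 2 and 4. Msr1 had a log2 fold change of -0.63 ± 0.53 (SE, edgeR adjusted p = 0.309), 0.67 above the panel median, and Mertk had -0.87, 0.43 above it. Without the averaged PBS 2 and 4, when the panel median was -0.52, Msr1 had -0.45, near that median, and Mertk had -0.75, below it. Mrc1 (-1.34) and Cd68 (-1.30) lay at the panel median with all samples, and without the averaged PBS 2 and 4 Mrc1 had -1.23, below the median of -0.52, and Cd68 had -0.52. Lyve1 (-2.10), Colec12 (-2.21) and Axl (-1.72) lay below the panel median, and without that sample they had -1.71, -0.84 and -0.57.

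**Figure D2:**
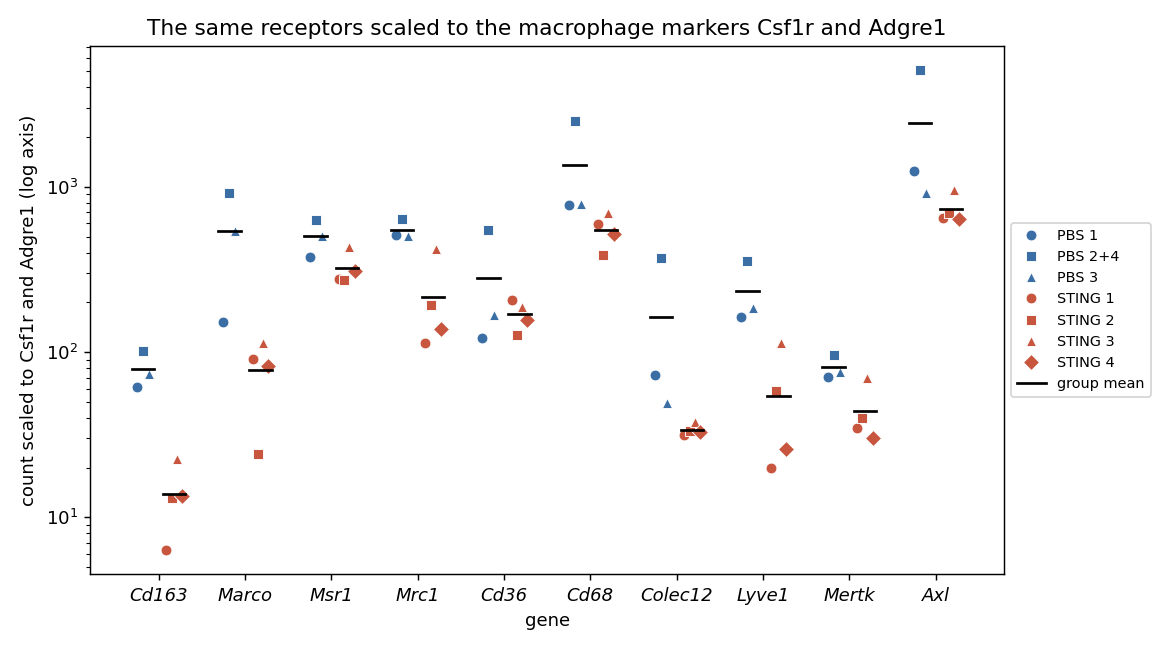
Count of each receptor scaled to Csf1r and Adgre1, on a log axis, in the same 7 samples, with black bars for group means. The averaged PBS 2 and 4 (blue square) is the highest sample for each of the 10 genes, and the treated tumors lie below all PBS samples for 7 of them, Cd163 and Marco included.

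**Figure D3:**
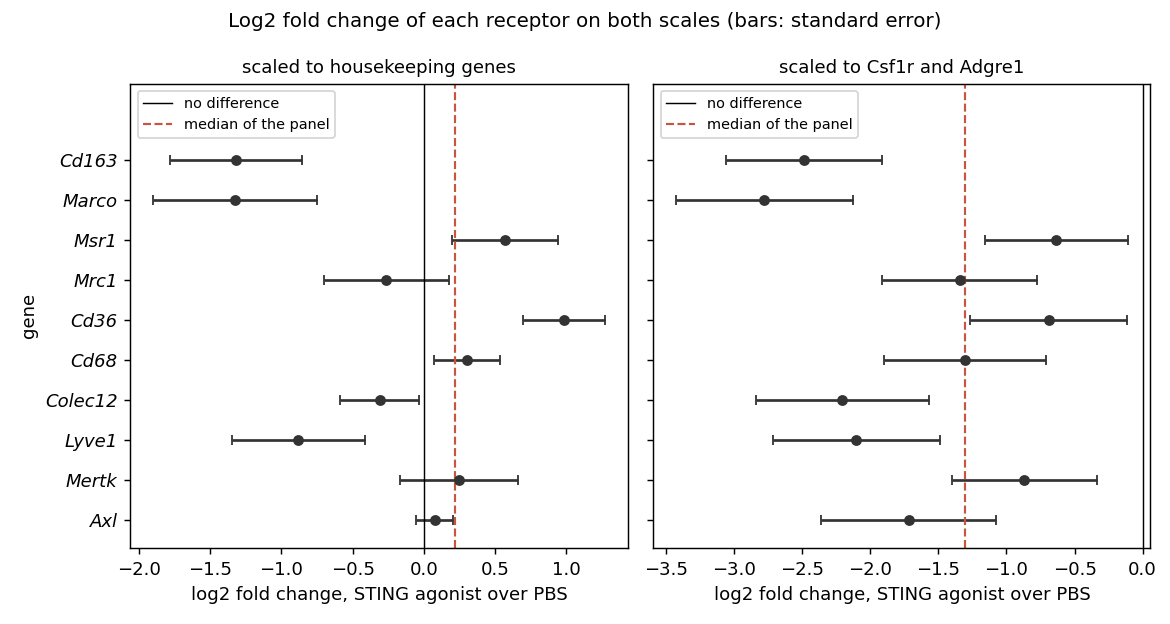
Log2 fold change of each receptor, STING agonist over PBS, with its standard error, on the housekeeping scale (left) and the macrophage marker scale (right). The dashed line is the median of the panel on that scale (0.22 and -1.30), and Cd163 and Marco lie to its left and Cd36 and Msr1 to its right on both.

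Genes that work with these receptors were listed by known function, and the counts of each list stand beside the 17.6% of panel genes that were higher, the 1.33% that were lower and the panel median of 0.22. Of 11 bridging ligands and don't-eat-me signals 6 were on the panel, of which 0 passed an unadjusted p of 0.05 in either direction (edgeR), with a median log2 fold change of 0.43. Anxa1, the most abundant of them, had -0.22 and turned to 0.15 without the averaged PBS 2 and 4, and was -0.39 without PBS 3 and -0.55 with DESeq2 size factors. The median of this list lies between Cd47 and C1qa, which stood at 1112 and 334.3 normalized counts in the averaged PBS 2 and 4. In PBS 1 they stood at 1600 and 1454 and in PBS 3 at 1651 and 1166, so the median rests in part on the averaged sample. Of 20 other engulfment receptors and their signals 7 were on the panel, and 2 were higher and 0 lower by the same rule, with a median of 0.48. These were Itgb2, the shared chain of the complement receptors, with a log2 fold change of 0.66 (adjusted p = 0.203, edgeR), and C3ar1, the receptor for complement C3a, with 0.90 (adjusted p = 0.230, edgeR). With DESeq2 size factors Itgb2 was 0.41, and without the averaged PBS 2 and 4 C3ar1 was 0.57. The list median of 0.48 is that of Itgam, at 173.0, 69.9 and 231.3 normalized counts in the PBS samples. It therefore rests in part on the averaged PBS 2 and 4, without which the panel median was 0.16. Lrp1, a large endocytic receptor and the most abundant of this list, had 0.06 and turned negative with TMM normalization (-0.18), the size factors of DESeq2 (-0.19) and the total count (-0.15), and without the averaged PBS 2 and 4 (-0.04) or STING 4 (-0.03).

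Of 18 other scavenger and pattern receptors listed, 6 were on the panel, and 3 of these were higher and 0 lower by that rule, with a median log2 fold change of 0.45. Cxcl16, a transmembrane chemokine that is also a receptor for oxidized lipoprotein, stood at 249.1, 61.6 and 182.3 normalized counts in the PBS samples and at 488.9, 402.4, 247.1 and 520.8 in STING 1 to STING 4. STING 3 lay just under PBS 1 and the other treated tumors lay above all PBS samples, with a log2 fold change of 1.33 ± 0.44 (SE, edgeR adjusted p = 0.194). Clec7a, the beta-glucan receptor dectin-1, had 1.60 ± 0.42 (SE, edgeR adjusted p = 0.175). Its groups did not overlap but nearly touched, at 22.6, 21.3 and 49.0 normalized counts in the PBS samples and 117.5, 114.3, 49.8 and 101.3 in STING 1 to STING 4. It reached an adjusted p of 0.0155 with DESeq2 in a range of 0.0155 to 0.386 over all alternatives. The transferrin receptor Tfrc had 0.53 ± 0.15 (SE, edgeR adjusted p = 0.175), and its adjusted p was 0.0348 with the DESeq2 Wald test in a range of 0.0348 to 0.428. It fell to 0.28 with DESeq2 size factors, and the unadjusted p was under 0.05 in 16 of 19 alternatives. Of 13 genes of lipid and cholesterol handling and the lysosome, 11 were on the panel, and 3 were higher and 0 lower, with a median of 0.22, that of the panel. They were the cholesterol exporter Abcg1 (0.82) and the lysosomal proteases Ctss (0.94) and Ctsh (0.94), with adjusted p of 0.230, 0.229 and 0.205 (edgeR), and Ctss was 0.59 without the averaged PBS 2 and 4. Lamp1, the most abundant, had 0.06 and turned to -0.22 with TMM normalization, -0.23 with the size factors of DESeq2, -0.12 with the total count and -0.10 without PBS 1.

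**Figure D4:**
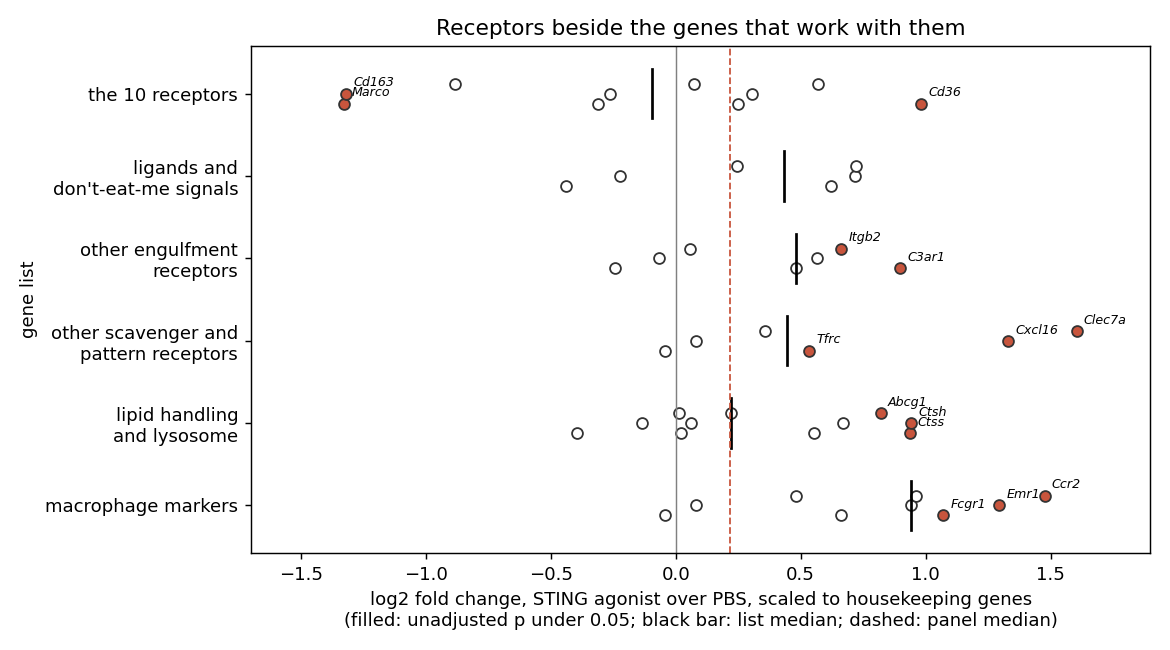
Log2 fold change on the housekeeping scale of each panel gene in the lists of receptors, partner genes and macrophage markers, with filled points at an unadjusted p under 0.05, black bars at list medians and a dashed line at the panel median of 0.22. The 2 filled points left of 0 are Cd163 and Marco, and the other filled points lie between 0.53 (Tfrc) and 1.60 (Clec7a).

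Markers of other cell types were counted in the same tumors, and their part in the results was not tested. T cell markers (6 of 6 on the panel) had 3 genes higher and 0 lower by an unadjusted p under 0.05 (Cd3e 1.18, Cd3g 1.51 and Cd8a 1.28 on the log2 scale) and a median of 0.77. Their summed level was 157.9, 105.5 and 169.1 normalized counts in the PBS samples and 377.4, 192.5, 190.0 and 349.6 in STING 1 to STING 4, the most abundant gene was Cd3d (0.36), and Cd2 and Cd4 were below background. Of the dendritic cell markers (3 of 5 on the panel) Itgax, which macrophages also carry, passed the rule as higher, but its 2.82, 3.56 and 5.86 normalized counts in the PBS samples lay below background, so the size of the difference is not given. The summed level was 19.7, 23.7 and 25.6 in the PBS samples and 41.5, 28.6, 34.3 and 36.8 in the treated tumors, and Flt3, the most abundant, had -0.38 (-0.72 without STING 3 and -0.19 without STING 4) at a mean of 11.6 counts. Neutrophil markers (4 of 5 on the panel, led by S100a8 at 0.15) and B cell markers (3 of 3, led by Cd79b at 0.34, the others below background) had 0 genes past an unadjusted p of 0.05. S100a8 turned negative with TMM normalization (-0.17), the size factors of DESeq2 (-0.17) and the total count (-0.04), and without PBS 1 (-0.03) or STING 1 (-0.04).

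Endothelial and stromal cells also carry Lyve1, Colec12, Cd36 and Axl. Of the endothelial markers (8 of 9 on the panel), 2 were higher and 0 lower by an unadjusted p under 0.05 (Kdr 1.06 and Eng 0.45), with a median log2 fold change of 0.34. Their summed level, led by Cd34 (-0.04, and 0.03 without PBS 3), was 3033, 3208 and 3563 normalized counts in the PBS samples and 3596, 3196, 3563 and 3164 in STING 1 to STING 4. Cd34 alone gave 2649, 2660 and 3041 of these in the PBS samples and 2929, 2544, 2871 and 2520 in the treated tumors. The sum therefore says little about the other markers, and 7 of the 8 had a log2 fold change above 0. Of 3 lymphatic endothelial markers 0 were on the panel, so the lymphatic share of Lyve1 could not be set beside its value. Fibroblast and pericyte markers (5 of 7 on the panel) had 1 gene higher (Col1a1 0.73) and 1 lower (Col3a1 -0.42, the most abundant), with a median of -0.30. Their summed level was 10733, 9203 and 9044 in the PBS samples and 8027, 8948, 6782 and 8838 in STING 1 to STING 4, and Col3a1 made up most of it in every sample. The only adipocyte marker on the panel, Cfd, stood at 122.2, 164.8 and 8.05 normalized counts in the PBS samples and at 3.56, 108.1, 33.2 and 20.6 in the treated tumors (log2 fold change -1.25, adjusted p = 0.553, edgeR, -0.65 without the averaged PBS 2 and 4, and -2.33 without STING 2). Cfd was not above background in STING 1 and PBS 3, so these log2 fold changes are not exact. The mesothelial marker Msln (1 of 3 on the panel) had -0.44 (-0.06 without the averaged PBS 2 and 4 and -0.71 without PBS 1), and the epithelial markers (3 of 4, led by Cdh1 at -0.68) had a median of -0.39, both with 0 genes past an unadjusted p of 0.05.

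Hepatocyte markers (8 of 11 on the panel) summed to 35.7, 29.6 and 70.3 normalized counts in the PBS samples and to 43.9, 24.8, 34.3 and 1445 in STING 1 to STING 4. An unadjusted p under 0.05 was reached by 1 that was higher and 0 that were lower, Ambp, whose log2 fold change of 4.88 was 0.18 without STING 4 and rests on PBS counts below background. Without STING 4 the log2 fold changes of the receptors were -1.43 for Cd163, -1.45 for Marco and 0.94 for Cd36. Without the averaged PBS 2 and 4, Itgb2, C3ar1, Abcg1, Cd3e, Cd8a, Eng, Col1a1 and Ambp no longer passed an unadjusted p of 0.05. Of the markers, Col1a1 was 0.45 without that sample and 1.10 without PBS 3, and with DESeq2 size factors Cd3d was 0.07, Cd79b 0.07, Cd34 -0.30, Col3a1 -0.70, Msln -0.75 and Eng 0.19. Over 19 alternatives, an unadjusted p under 0.05 was reached in 7 for Eng, 9 for Col1a1, 10 for Abcg1, 15 for Col3a1 and 19 for Kdr.

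The panel genes most like Cd36 and Cd163 across the 7 samples were sought among 518 others with a mean of at least 20 counts, by Pearson's r of log2(normalized count + 1). For Cd36, which had the lowest p of the receptors that were higher, they were Ido1 (r = 0.99), Il7r (r = 0.98) and Icosl (r = 0.97), with log2 fold changes of 1.47, 1.46 and 0.67. For Cd163, which had the lowest p of those that were lower, they were Il2ra (r = 0.88), F13a1 (r = 0.87) and Tollip (r = 0.86), with log2 fold changes of -0.20, -0.86 and -0.18. Il2ra was -0.03 without PBS 3, and with DESeq2 size factors Il2ra was -0.45, Tollip -0.44 and Icosl 0.41. Each r is over samples of both groups, so it includes the difference between them, and it is a description over n = 7 samples that were also used to choose the genes. F13a1, the coagulation factor subunit made by tissue macrophages, was -0.49 without PBS 3 and -1.37 without STING 3.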

How the data were processed

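RNA of 8 peritoneal MC38 tumors was counted on the nCounter PanCancer Immune Profiling mouse panel. The authors deposited raw counts of 784 probes per tumor (750 genes, 20 housekeeping, 8 negative and 6 positive controls), with no scaling or background subtraction, and the lowest count in any sample was 1. Their later normalization to housekeeping genes was not used. Groups came from the sample labels. The counts of PBS 2 and PBS 4 were averaged and rounded. Each library size was proportional to the geometric mean over the housekeeping genes, or over Csf1r and Adgre1, and 3 PBS samples were compared with 4 STING agonist samples with edgeR 4.0.16 in R 4.3.3 (quasi-likelihood test, no filter, no covariate), with Benjamini-Hochberg adjustment over the panel and a threshold of 0.05. SE is the log2 fold change divided by the root of the F statistic. Background is 2 SD above the average of the negative controls. Panel totals near 241506 to 414698 counts leave genes near background with a large counting error.

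The members and lists were chosen with earlier results of these data known. Named were every member, the genes of each list at an unadjusted p under 0.05 and its most abundant gene (at most 6 a list), and the 3 panel genes most like the member with the lowest p in each direction. Cd2, Cd4, Csf1r, Itgam, Cd47, C1qa, Hamp, Crp, C8a and Mbl2 were named outside this rule, after their values were seen. Lists covered ligands, engulfment, scavenger and lipid genes and markers of macrophages, leukocytes, T, B, dendritic, endothelial, lymphatic, stromal, adipocyte, mesothelial, hepatocyte and epithelial cells and neutrophils. Alternatives were TMM, DESeq2 size factors, total count, positive controls, housekeeping genes of at least 100 counts, a mean of at least 20 counts, DESeq2 1.42.0 (Wald test), limma 3.58.1 with a pseudocount of 1, the per-gene test of the methods, 8 separate tumors, each sample left out, a replicate block, and Csf1r, Adgre1 or Ptprc alone as reference. Limma with 8 separate tumors and the block on the macrophage scale were chosen after seeing the data. Of 10 members, 9 matched RefSeq (GRCm38.p6) by transcript and 10 by symbol. Python 3.11.15 with matplotlib 3.10.9 drew the figures.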

Additional observations from a re-analysis of the deposited data

Results flagged for a closer look

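Ambp, a liver gene, was far from the other treated tumors in STING 4, where the gap to the next sample was 0.988 of the range of the group. This was 1 of 49 genes examined in the treated group, where chance gives about 2.45, and 0 of the 10 receptors stood out in this way. The 49 were genes named in this report and held no other hepatocyte marker. In STING 4, Hamp stood at 253.7, Crp at 121.9, C8a at 112.1 and Mbl2 at 77.1 normalized counts. Their highest values in the other treated tumors were 8.31, 4.15, 3.56 and 7.12. The part of liver tissue in STING 4 was not tested, and the receptors' values without that tumor are given with the hepatocyte markers.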

How the results depend on the processing

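On the housekeeping scale, Cd163, Marco, Cd36, Msr1, Cd68, Lyve1 and Colec12 kept their direction in 19 of 19 alternatives, and an unadjusted p under 0.05 was reached in 15 for Cd163, 12 for Marco and 18 for Cd36. Leaving out 1 sample at a time gave log2 fold changes of -1.66 to -0.89 for Cd163, -1.69 to -0.47 for Marco and 0.78 to 1.23 for Cd36. The causes of the differences between settings were not tested. Panel genes at an unadjusted p under 0.05 numbered 84 higher and 40 lower with TMM, 78 and 44 with DESeq2 size factors and 68 and 31 with the total count. The per-gene test of the methods gave 86 genes higher and 10 lower, and 0 receptors higher and 0 lower. The DESeq2 Wald test gave 44 panel genes and 1 receptor at an adjusted p under 0.05. Limma gave 143 panel genes higher and 11 lower by an unadjusted p under 0.05, the filter at a mean of 20 counts gave 118 and 7 of 519, and each gave 1 receptor higher and 1 lower. Limma with 8 separate tumors gave 198 panel genes higher and 15 lower, with 2 receptors higher and 0 lower. Leaving out 1 sample gave 79 to 154 panel genes higher, 6 to 18 lower and 0 to 7 after adjustment, with 1 to 2 receptors higher, 0 to 3 lower and 0 after adjustment.

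Directions turned for Axl with TMM (-0.20), DESeq2 size factors (-0.21) and total count (-0.13), as for Lrp1 (-0.18, -0.19 and -0.15), Lamp1 (-0.22, -0.23 and -0.12) and S100a8 (-0.17, -0.17 and -0.039). With 8 separate tumors Lamp1 was -0.024 with edgeR and -0.00166 with limma, and Mrc1 was 0.15 with limma. Leaving out 1 sample gave ranges across 0 for Mrc1 (-0.65 to 0.086), Mertk (-0.12 to 0.64), Anxa1 (-0.39 to 0.15), Lrp1 (-0.040 to 0.21), Lamp1 (-0.10 to 0.25), S100a8 (-0.042 to 0.49) and Cd34 (-0.074 to 0.033).

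On the macrophage marker scale, Cd36 ranged from -1.05 to 0.22 with 1 sample left out, and the other 9 receptors kept their direction in 12 of 12 alternatives. Genes at an adjusted p under 0.05 numbered 24 with 3 receptors for Csf1r alone as reference (7 genes higher at an unadjusted p), 336 with 7 for Adgre1, 258 with 5 for Ptprc, and 464 with 7 for 8 separate tumors. Leaving out 1 sample gave 0 to 391 genes and 0 to 6 receptors after adjustment, and 0 to 7 genes higher and 203 to 452 lower before it.

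Replicate numbers were taken from the labels, where nothing says that they pair mice, and the deviations of like-numbered tumors from their group means correlated at -0.28 to -0.06 over 517 genes. With the number as a block over 8 separate tumors, 159 panel genes were higher and 13 lower by an unadjusted p under 0.05, 2 receptors were higher and 1 was lower, and the values were 0.15 for Mrc1, -0.00253 for Lamp1, -0.95 for Cd163 and -1.17 for Marco on the log2 scale. On the macrophage marker scale the block gave 31 genes and 3 receptors at an adjusted p under 0.05, and 1 gene higher at an unadjusted p. Low counts limit Cd163, whose lowest count of 8 lay near background.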
